A study of Calluna vulgaris with 2 samples.

Results

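Among the transcripts of young flowers of common heather (Calluna vulgaris), 6 contigs carry annotations of protection against water loss and cold. They are annotated as dehydrin, low temperature induced-like protein, AWPM-19-like protein, galactinol synthase, early dehydration inducible protein and LEA14-like desiccation protectant. The 6 contigs were taken by contig number out of 12058 contigs of the deposited read table, of which 195 are annotated in the list of differentially expressed contigs of the study. They were chosen from the read numbers of the same libraries, so their differences between the libraries are given here as a description, and where a call rule is applied to them nothing is read from it. 'Maria' is a bud bloomer (bud), a heather cultivar whose flowers stay closed, lack stamens and carry sepals in place of petals. F1 is a plant with open wild type flowers (wt) from the cross of 'Maria' with the wild type cultivar 'Boskoop'. From each genotype 1 cDNA library was made of whole young flowers, bracts and carpels included, and both genotypes were grown in the same way, in the greenhouse in winter and outdoors while there was no frost. There were no replicates, so that the spread between plants was not measured and each comparison of reads sets 1 library against the other, not 1 flower type against the other.

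The pair of genotypes limits what a read number can show. F1 carries 1 set of chromosomes from 'Boskoop', so that a contig that holds an allele of 'Boskoop' can have reads from the wt library only, and an allele difference and a difference in transcript number cannot be told apart from these counts. Fewer cells of a type and less RNA per cell cannot be told apart either, because whole flowers were used and only the wt flowers had stamens. The cDNA was primed at the poly(A) tail, so that reads lie near the 3' end of a transcript, after 17 cycles of PCR and selection of cDNA between 500 and 650 bp. No sequence of a contig was available for display here, and the lengths of the contigs were not used, so shares of reads are compared between libraries for the same contig and not between contigs.

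Plants that lose water or are exposed to cold build up a set of protective molecules, many of them under the control of the hormone abscisic acid. Late embryogenesis abundant (LEA) proteins, to which the dehydrins belong, are very hydrophilic and are known to protect membranes and enzymes in drying seeds, in pollen and in tissue exposed to frost. Sugars of the raffinose family, whose synthesis starts with galactinol synthase, act as compatible solutes in the same tissues.

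The counts summed to 193454 reads for the bud library and to 157245 reads for the wt library, 350699 in all. This sum is larger than the number of reads that the study places in the contigs of the assembly. It was not tested whether some reads count for several contigs, and intervals and calls take each read as counted once. The columns of the deposited table are numbered and do not name a flower type. The first was assigned to bud and the second to wt, because the bud and wt reads of 9 contigs in another list of the study stand in this order for 9 of 9 contigs and in the opposite order for 0 of 9. The annotation list heads its columns the other way round, and with that order each direction given here is reversed. The read numbers printed in the annotation list equal the deposited ones for 2 of its 195 contigs and for 0 of the 6 contigs, so that only contig number and annotation were taken from it. The list has 2 parts. Of the 114 contigs in the first part, 109 had the higher share in the bud library, and of the 81 contigs in the second part, 80 had the higher share in the wt library. The contigs of 5 of the 6 annotations stand in the second part. Galactinol synthase stands in the first part and is 1 of the 5 contigs there whose share was higher in the wt library, so its direction goes against its place in the list.

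Markers of the tissue did not all follow the labels. The B gene CvPI (contig07420), which is needed for petals and stamens, had 20 wt reads and 0 bud reads. CvPI is among the contigs by which the columns were assigned, so its direction is no separate check of the labels. The partner of CvPI, CvAP3 (contig09453), had 21 and 15 reads. A contig annotated as like a pollen protein (contig01586) had 0 wt reads and 67 bud reads. Another, annotated as like a precursor of the tapetum protein TAP1 (contig03435), had 140 and 381 reads, although stamens are missing from the bud flowers. The paper states that its annotation gave gene families or motifs and not single genes, so the identity of both is not certain. The same limit holds for the 6 contigs, whose annotations come from the same list. The pollen-like and TAP1-like contigs summed to 8.90 reads per 10000 in wt and 23.2 in bud. The 4 contigs of the green tissue list summed to 19.0 and 22.0 reads per 10000, but its members went in opposite directions. Light-harvesting contig00785 had 35 wt and 0 bud reads and photosystem contig01100 had 61 and 0, both called higher in wt by the rule given below, as the 6 contigs were. Rubisco small subunit contig00603 had 0 and 51 and was called higher in bud, and contig03543, also light-harvesting, had 203 and 375 and was not called. The part of the tissue makeup in the results below was not tested. The 4 reference contigs had 2 and 10 (contig02315), 8 and 4 (contig05402), 8 and 17 (contig04235) and 30 and 44 reads (actin, contig03212) in wt and bud. None of them passed the call rule given below. At such low read numbers that rule has little power, so a missing call does not show equal shares.

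All 6 contigs had more reads in the wt library, which is the smaller of both. Together they held 1351 wt reads and 140 bud reads. This is 85.9 reads per 10000 reads of the wt library (exact Poisson 95% interval 81.4 to 90.6) and 7.24 per 10000 of the bud library (6.09 to 8.54). The summed share was 11.9-fold higher in wt (exact 95% interval 9.97 to 14.2), or 0.859% of all wt reads against 0.0724% of all bud reads. All intervals cover counting error only and leave out the spread between plants. They take reads as independent, which PCR copies of 1 molecule are not, so that they can be too narrow even for counting error. The sum rests largely on a pair of contigs. Early dehydration inducible protein held 49.7% of the wt reads of the 6 contigs, dehydrin held 30.8%, and early dehydration inducible protein alone held 90.0% of their bud reads. Without early dehydration inducible protein the remaining 5 contigs had 679 wt reads and 14 bud reads, a ratio of 59.7 (35.3 to 110). Without dehydrin the ratio was 8.22 (6.87 to 9.88).

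**Figure D1:**
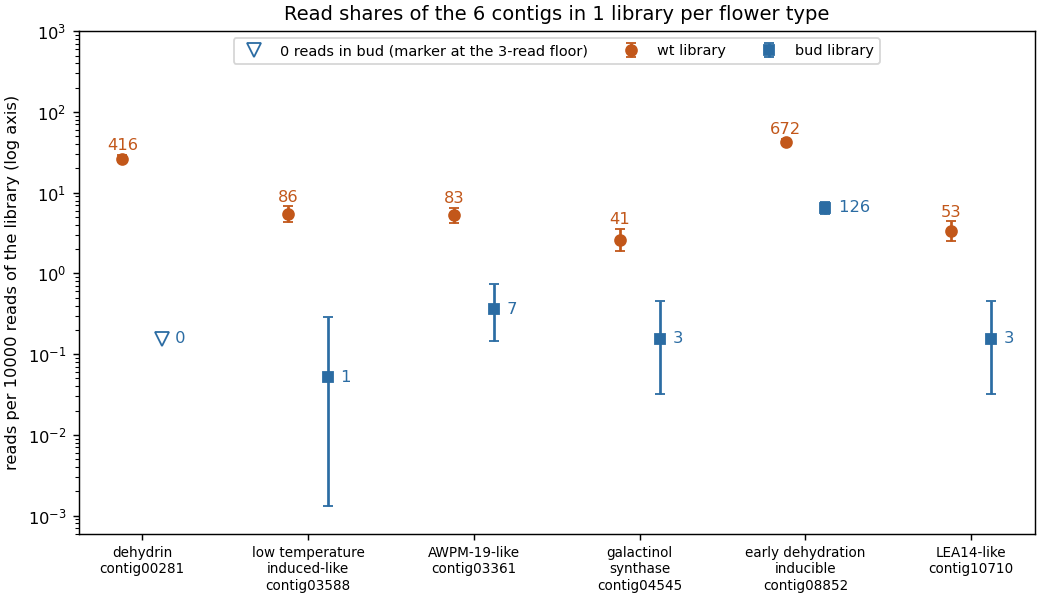
Reads per 10000 reads of a library (log axis) for the 6 contigs, with circles for the wt library, squares for the bud library, bars for exact Poisson 95% intervals and the read number beside each point. The open triangle marks 0 reads of dehydrin in bud, drawn at the floor of 3 reads. In each contig the wt point lies above the bud point and the bars do not overlap, with read numbers from 41 to 672 in wt and from 0 to 126 in bud.

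The LEA proteins and the dehydrin come first. Dehydrin (contig00281), a LEA protein that binds to membranes and other surfaces in drying or cold cells, had 416 wt reads and 0 bud reads. Its share in wt was 26.5 per 10000 (24.0 to 29.1), and the exact interval of its bud share reaches 0.191 per 10000. Dehydrin was the only one of the 6 without a read in the bud library. By the exact interval its share was at least 138-fold higher in wt. With a floor of 3 reads in place of 0, or 0.155 per 10000, the ratio was 171. LEA14-like desiccation protectant (contig10710) belongs to a group of LEA proteins whose Arabidopsis member LEA14 has a folded structure, unlike most LEA proteins. It had 53 wt reads and 3 bud reads, with shares of 3.37 (2.52 to 4.41) and 0.155 (0.0320 to 0.453) per 10000. Its ratio of 21.7 has a wide interval, 7.04 to 109, because only 3 reads stand in the denominator.

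The contig of low temperature induced-like protein, contig03588, held 86 wt reads, 5.47 per 10000 (4.37 to 6.75), and 1 bud read, 0.0517 per 10000 (0.00131 to 0.288). Its ratio of 106 is bounded by counting error to 18.5 to 4227, so that its size is known only roughly. Early dehydration inducible protein (contig08852) had the most reads of the 6 in both libraries, 672 in wt and 126 in bud. Its shares were 42.7 (39.6 to 46.1) and 6.51 (5.43 to 7.75) per 10000. The ratio of 6.56 (5.42 to 8.001) was the smallest of the 6 and the one with the narrowest interval, and the contig was well represented in the bud library.

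AWPM-19-like protein (contig03361) belongs to a family of plasma membrane proteins first described in wheat cells treated with abscisic acid. It had 83 wt reads and 7 bud reads, with shares of 5.28 (4.20 to 6.54) and 0.362 (0.145 to 0.745) per 10000 and a ratio of 14.6 (6.77 to 37.4). Galactinol synthase (contig04545) makes galactinol from UDP-galactose and myo-inositol. It had 41 wt reads and 3 bud reads, with shares of 2.61 (1.87 to 3.54) and 0.155 (0.0320 to 0.453) per 10000 and a ratio of 16.8 (5.36 to 84.9). It had the fewest wt reads of the 6. The intervals of the ratios of AWPM-19-like protein, galactinol synthase and LEA14-like protein overlap each other, so that their order is not resolved at this depth. The interval of early dehydration inducible protein lies below that of low temperature induced-like protein and below the bound of dehydrin.

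The call rule took the Audic-Claverie probability, the Bonferroni correction and the threshold from the methods of the study, while the form of the tail was chosen here. A two-sided tail was formed, given the bud count, and corrected after Bonferroni over the 11900 contigs whose reads of both libraries summed to more than 2. A contig was called at an adjusted p below 0.01. By this rule 6 of the 6 contigs were called higher in wt, where 176 of 11900 contigs (1.48%) were called higher in wt and 168 (1.41%) higher in bud. With the single probability in place of the tail, 203 and 186 contigs were called. A rule of size alone, a share at least 4-fold higher with counts under 3 set to 3, was met by 6 of 6 in wt, beside 542 of all tested contigs (4.55%) in wt and 276 (2.32%) in bud. The mark of 8-fold was reached by 5 of the 6, the exception being early dehydration inducible protein, and the number of all tested contigs that reached it is given further below. Nothing is read from these counts, because the study listed the contigs for this difference. All 6 contigs had over 2 reads and so entered the test. Depth also differed from the rest: the least covered of the 6 had 44 reads, and of the 1539 contigs with at least 44 reads, 106 (6.89%) were called higher in wt and 137 (8.9%) higher in bud.

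On the log2 scale the median ratio of wt to bud was 4.26 over the 6 contigs, -0.02 over all 11900 tested contigs and -0.94 over the 195 annotated contigs, with a count of 0 set to 3 reads. Of the annotated contigs, 77 were called higher in wt, 98 higher in bud and 20 were not called. The 6 contigs thus had the direction of the smaller share of the annotated contigs.

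The choice of library totals moved all 6 contigs together. Shares were computed on the sums of the counts, and 5 other sets of totals were tried. The shift on the log2 scale was between 0.02 with size factors of DESeq2 and 0.32 with the reads in contigs of each separate assembly, in favour of wt. Over these sets the ratio of dehydrin, with its missing bud reads set to the floor, was 174 to 212. These are ratios at the floor and not lower limits of the exact interval. The ratio of early dehydration inducible protein was 6.68 to 8.17, and the log2 ratio of the sum was 3.59 to 3.89. The order of the 6 contigs cannot change with the totals, since each set multiplies all ratios by 1 factor. All 6 contigs stayed above 4-fold in each of the sets.

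**Figure D2:**
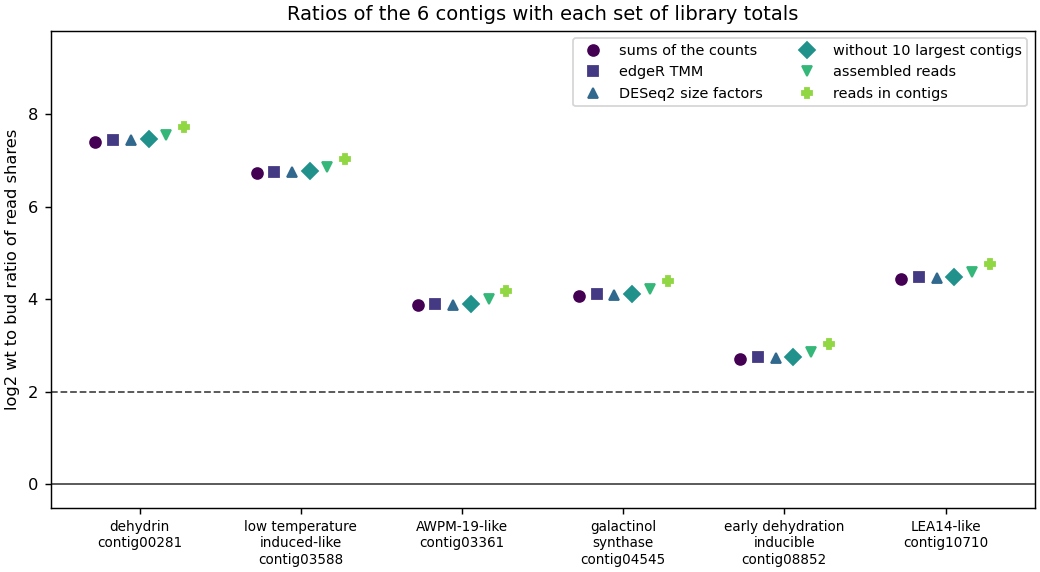
Log2 ratio of the wt to the bud share (y axis) of the 6 contigs with 6 sets of library totals, each set with its own marker. Dehydrin is drawn with its bud count of 0 set to 3 reads, the solid line marks equal shares and the dashed line a 4-fold higher share in wt. The markers of each contig lie within 0.32 of each other and all lie above the dashed line.

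An assumed spread between plants had a larger effect on the calls. In the exact test of edgeR with a coefficient of variation of 0.2 set by hand, 6 of the 6 contigs were called higher in wt, and 86 contigs of the table. With a coefficient of variation of 0.4, 1 of the 6 was called, which was dehydrin, and 21 contigs of the table. The true spread is not known from 1 library per flower type.

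Contigs with consecutive numbers can be pieces or alleles of 1 transcript, because the assembler numbers the contigs of 1 connected group of reads together. Of 13 pairs of annotated contigs with consecutive numbers, 8 carried the same annotation. The contigs up to 2 numbers before and after each of the 6 were therefore examined. None of these neighbours is annotated. Dehydrin alone had called neighbours, 2 of them, both higher in wt, and none of the neighbours of the 6 contigs was called higher in bud.

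The dehydrin contig opened a row of contigs found almost only in wt. Next to the 416 and 0 reads of contig00281 in wt and bud, contig00282 had 725 and 2 reads, contig00283 had 71 and 0, contig00284 had 207 and 0, and contig00285 had 324 and 0. Before it, contig00280 had 11 and 20 reads. After it, contig00286 had 12 and 4 reads and was not called, contig00287 had 40 and 10, a ratio of 4.92, and was called higher in wt, and contig00288 had 7 and 0, so that the lean to wt did not stop sharply at contig00285. Over the 5 contigs, 1743 reads came from wt and 2 from bud, with shares of 111 and 0.103 per 10000 and a ratio of 1072 (296 to 8860). Without contig00281 the other 4 had 1327 and 2 reads and a ratio of 816 (226 to 6747). These contigs were chosen after their values were seen, have no annotation, and may share reads with contig00281. The table holds 14 rows of at least 2 consecutive contigs called higher in wt and 12 called higher in bud, and 2 of these rows reach 5 contigs, contig00281 to contig00285 and contig00236 to contig00240. In the second of these rows contig00236 had 24 wt reads, contig00237 had 216, contig00238 had 45, contig00239 had 37 and contig00240 had 27, with 0 bud reads in each.

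None of the other 5 contigs had a called neighbour within 2 numbers. Beside low temperature induced-like protein, contig03587 had 12 wt reads and 7 bud reads, and contig03589 had 30 and 80. Summed with these, its ratio was 1.79, and with the neighbours up to 2 numbers away, 1.10 (0.898 to 1.34), an interval that holds 1. Most reads of that sum belonged to contig03586 (58 and 119 reads) and contig03589. Beside AWPM-19-like protein, contig03360 had 4 and 8 reads and contig03362 had 4 and 4, and the summed ratio was 5.89 with 1 neighbour on each side and 1.63 with 2. Beside galactinol synthase, contig04544 had 15 and 10 reads and contig04546 had 6 and 4, with a summed ratio of 4.49. With 2 neighbours on each side the ratio was 0.844 (0.701 to 1.015), an interval that holds 1, because contig04543 alone held 121 and 241 reads. Whether these neighbours belong to the same transcripts was not tested.

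For early dehydration inducible protein the neighbours hardly counted. Here contig08851 had 11 wt reads and 10 bud reads, contig08853 had 5 and 5, and the summed ratio was 6.003, or 5.89 with 2 neighbours on each side. Beside LEA14-like protein, contig10709 had 4 and 4 reads and contig10711 had 7 and 0. Further on, contig10712 had 5 and 1 reads, contig10713 had 8 and 1 and contig10715 had 10 and 1, so that several weakly covered contigs after LEA14-like protein also had more wt reads, while contig10714 had 28 and 33. The summed ratio was 11.2 with 1 neighbour on each side and 6.24 with 2. Both contigs thus kept a share at least 4-fold higher in wt in either sum, and so did dehydrin, with 64.4 and 17.5.

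**Figure D3:**
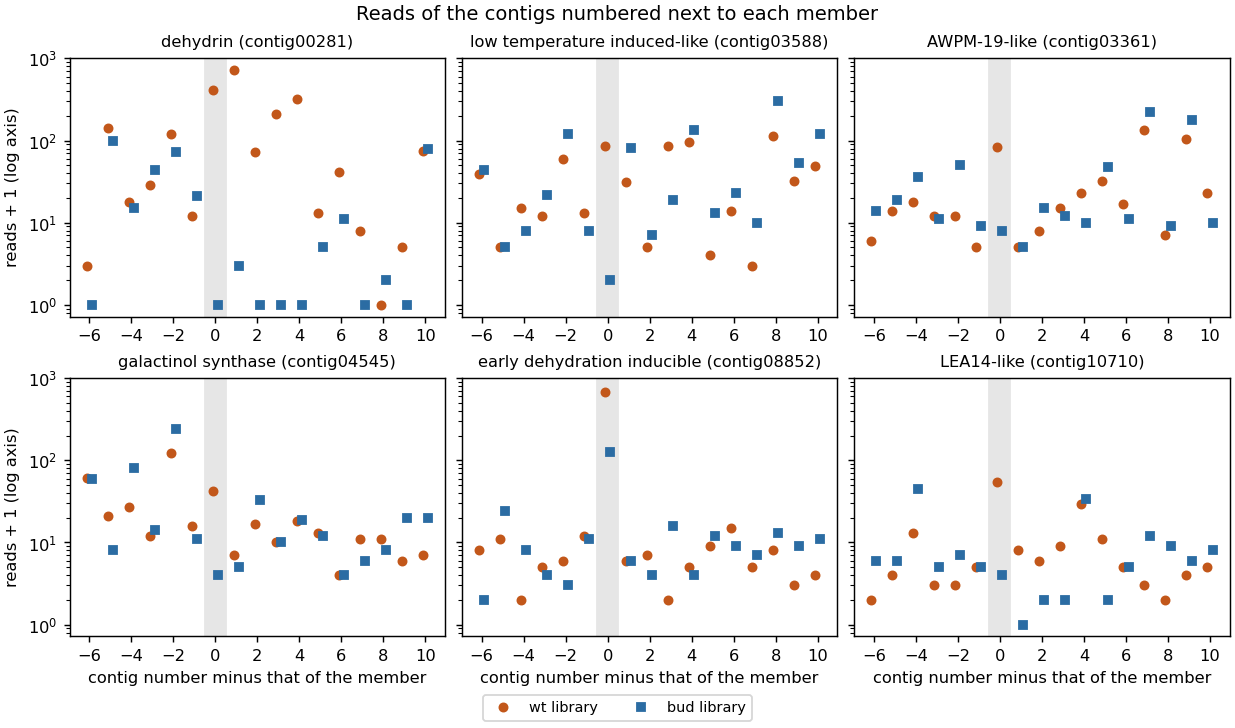
Reads with 1 added (log y axis) of the contigs numbered from 6 before to 10 after each of the 6 contigs (x axis, difference in contig number), with circles for wt, squares for bud and a grey band at the contig itself. In the dehydrin panel the circles stay high from 0 to 4 while the squares lie at 0 to 2 reads. In the other 5 panels no contig within 2 numbers of the grey band was called, although in the LEA14-like panel the circles also lie above the squares at 1, 2, 3 and 5.

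Other contigs annotated as LEA, abscisic acid related, wound-responsive or stress responsive proteins did not all have 1 direction. The list holds 5 contigs, of which 4 were called higher in wt. The 1 called higher in bud is a stress responsive A/B barrel contig, not a LEA or abscisic acid annotation. The summed shares were 28.6 per 10000 in wt and 18.8 in bud. All list members were also chosen by the study on these libraries, so the counts are no independent evidence of a direction. LEA protein 1 (contig00694) had 36 wt reads and 7 bud reads, a ratio of 6.33 (2.78 to 16.9). It too opens a row of contigs called higher in wt: contig00695 had 60 and 7 reads, contig00696 had 72 and 4, and contig00697 had 67 and 10. ASR2 (contig03511), a protein of the family induced by abscisic acid, stress and ripening, had 299 and 228 reads, and its share was 1.61-fold higher in wt (1.35 to 1.93). The wound-responsive protein contig00062 had 59 and 17 reads, a ratio of 4.27 (2.46 to 7.81).

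Within this list, a pair of contigs with the same annotation went in opposite directions. The stress responsive A/B barrel domain contigs had 24 wt reads and 111 bud reads (contig00615), and 31 wt reads and 0 bud reads (contig00617). The share of the first was 3.76-fold higher in bud (2.40 to 6.11), and that of the second was at least 9.74-fold higher in wt. The median log2 ratio of the list was 2.09, beside -0.02 over all tested contigs.

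Sugar metabolism contigs around galactinol synthase gave mixed directions. Of 4 contigs in the raffinose and sucrose list, 0 were called higher in wt, 2 were called higher in bud and 2 were not called. Alpha-galactosidase (contig06404), an enzyme that removes galactose from raffinose sugars, had 28 wt reads and 4 bud reads. Its share was higher in wt, 8.61-fold (3.01 to 33.8), and was not called by the main rule, but was called with Fisher's exact test and with Benjamini-Hochberg adjustment. With the reads in contigs of each separate assembly as totals, 1 contig of the list was called higher in wt and 1 higher in bud. Sucrose synthase (contig03346), which cleaves sucrose for use in metabolism, had 71 wt reads and 180 bud reads and was 2.06-fold higher in bud (1.56 to 2.75). Fructokinase (contig00356), which phosphorylates fructose, had 22 and 104 reads and was 3.84-fold higher in bud (2.41 to 6.39). The pfkB type kinase contig00357, with the number next to fructokinase, had 8 and 49 reads, a ratio of bud to wt of 4.98 (2.34 to 12.2), and was not called.

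Water channel, osmotin and lipid transfer contigs, often studied beside dehydrins, held the largest numbers. Of 6 contigs, 3 were called higher in wt, 2 higher in bud and 1 was not called, and their shares summed to 173 per 10000 in wt and to 30.2 per 10000 in bud. The bud calls depended on the library totals: 0 were made with the reads in contigs of each assembly, beside 4 wt calls, and 1 with each of 3 other sets. A lipid transfer protein (contig00090) held most of these, 2121 wt reads and 281 bud reads, a ratio of 9.29. The other lipid transfer protein (contig03191) had 184 and 133 reads, a ratio of 1.70, and was not called. Osmotin-like proteins, thaumatin-like proteins first known from tobacco cells adapted to salt, went both ways. Contig00322 had 51 wt reads and 1 bud read, a ratio of 62.7 (10.8 to 2526), and contig00325 had 306 and 0, at least 101-fold higher in wt. Between them by number, contig00324 had 0 wt reads and 28 bud reads, at least 5.77-fold higher in bud. Also between them, contig00323, which is not in the list, had 462 wt reads and 127 bud reads and was called higher in wt. Whether these contigs belong to the same transcript was not tested. The aquaporin PIP1-3 (contig03740), a water channel of the plasma membrane, had 53 and 142 reads and was 2.18-fold higher in bud (1.58 to 3.04).

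Both contigs annotated as auxin-repressed proteins, a family known from dormant buds of pea, were called higher in wt. Of all 11900 tested contigs, 176 (1.48%) were. The study listed these contigs, like those of the sugar and water channel lists, for a difference between the same libraries. Nothing is therefore read from the counts. Contig00539 had 33 wt reads and 0 bud reads, at least 10.4-fold higher in wt, and contig06193 had 65 and 23 reads, a ratio of 3.48.

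**Figure D4:**
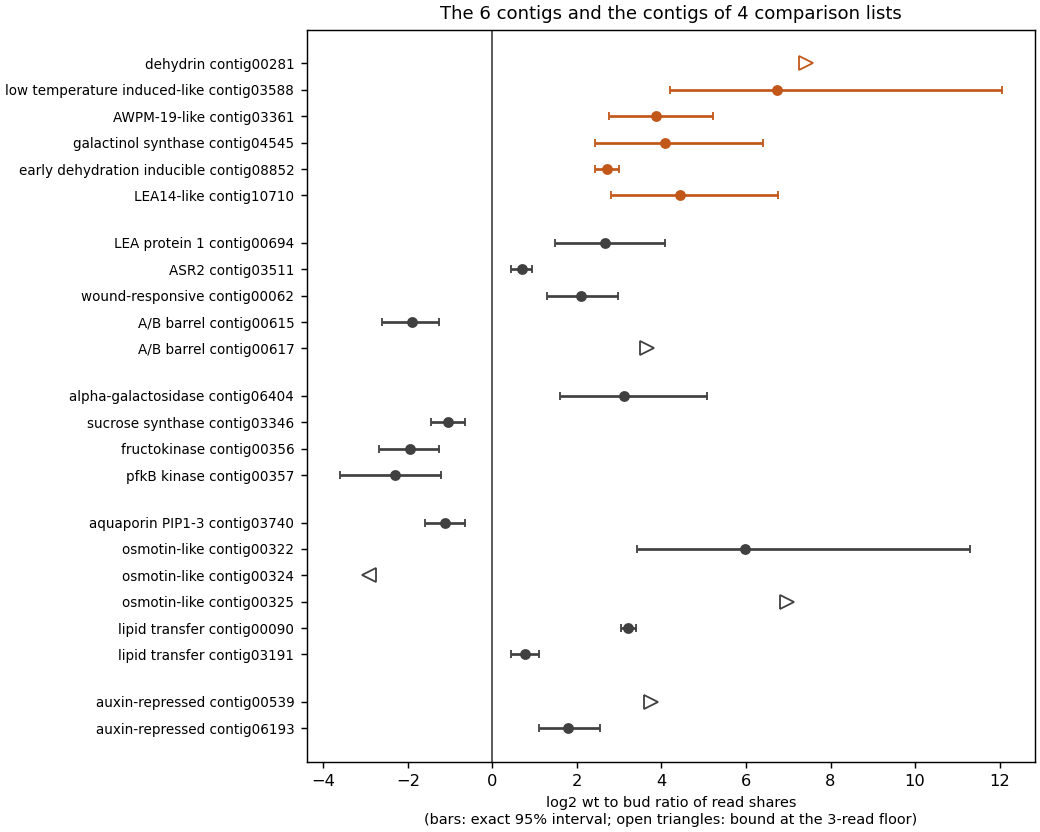
Log2 ratio of the wt to the bud share (x axis) of the 6 contigs in orange and of the 17 contigs of 4 comparison lists in grey. Circles mark ratios and bars exact 95% intervals. Open triangles mark contigs with 0 reads in 1 library, drawn with the 0 set to 3 reads. The 6 contigs, chosen from the reads of these libraries, lie between 2.71 and 7.41 and none of their bars reaches 0. The sugar list, the osmotin-like contigs and the A/B barrel contigs lie on both sides of 0.

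The annotated contig outside the 6 with the most similar pair of shares was looked up for each contig, by the Euclidean distance of the log2 shares over the 2 libraries. For dehydrin and for low temperature induced-like protein it was an osmotin-like protein, contig00325 at a distance of 0.44 and contig00322 at 0.75. For AWPM-19-like protein it was a glutaredoxin-like protein (contig06023, 58 wt reads and 8 bud reads, distance 0.55). For galactinol synthase it was a histone (contig00032, 43 and 0 reads, distance 0.07), and for LEA14-like protein an uncharacterized protein (contig06053, 54 and 0 reads, distance 0.03). Both small distances arise at the floor, where 3 reads and 0 reads have the same value. Early dehydration inducible protein had no close match. The nearest was a defensin (contig05824, 341 and 205 reads) at a distance of 1.21 and with a ratio of 2.05.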

How the data were processed

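Young flowers of 'Maria' (bud) and F1 (wt) gave 1 library each. The authors filtered the reads, assembled both libraries into backbone contigs with GS DeNovoAssembler (Newbler) 2.5.3 and mapped the reads back, library by library. The deposited counts are raw reads per contig and library, and a signal column, also deposited, gives them per 10000 reads. The latter differed by more than 0.06 from values computed from the counts in 438 contigs and in 0 of the 6 contigs, and were not used further. The deposited p-values of the authors were not used. From 12061 entries, 3 repeats were removed.

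Intervals are exact Poisson intervals for shares and exact binomial intervals for ratios, at 95%. In ratios a count of 0 was set to 3 reads, while a fold given as at least is the lower limit of the exact interval. The contigs and the comparison lists were chosen with earlier results of these data known. Named were the 6 contigs, their neighbours within 2 numbers, contigs of the comparison lists and, for each of the 6, the nearest annotated contig by log2 shares. Annotations were linked by contig number. The read numbers printed with them equalled the deposited ones for 0 of the 6 contigs, so the link is not secured for these. Supplied locus tags of the heather genome have no link to the contigs and were not used.

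Alternatives were 5 other sets of library totals, the opposite library order, a floor of 1 read, neighbours summed, each contig left out, other forms of the test, Benjamini-Hochberg adjustment, other read minimums, 8-fold, and an exact test of edgeR in which the coefficient of variation was set by hand. The dehydrin row and the assumed variation with plain count sums were added after the data were seen. The tools were edgeR 4.0.16 and DESeq2 1.42.0 (R 4.3.3) and scipy 1.17.1, pandas 2.3.3, numpy 2.4.6 and matplotlib 3.10.9 (Python 3.11.15).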

Additional observations from a re-analysis of the deposited data

How the results depend on the processing

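No paired analysis was possible because each flower type has 1 library. With the library order of the annotation list, the log2 ratios of wt to bud were -7.41 (dehydrin), -6.73 (low temperature induced-like), -3.87 (AWPM-19-like), -4.07 (galactinol synthase), -2.71 (early dehydration inducible), -4.44 (LEA14-like) and -3.57 (sum), 0 of the 6 contigs were called higher in wt and 0 were 4-fold higher, and 276 contigs of the table were 4-fold higher in wt. Summed with up to 2 neighbours on each side, galactinol synthase had a log2 ratio of -0.24, because of the reads of contig04543. Whether that contig belongs to the same transcript was not tested. The log2 ratio of the sum, 3.57 as reported, was 3.89 with the reads in contigs of each assembly as totals, 3.04 without contig00281 and 5.90 without contig08852. With an assumed coefficient of variation of 0.4, 1 of the 6 was called with either set of library sizes.

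Of the whole table, 437 contigs were called higher in wt and 451 higher in bud with Benjamini-Hochberg adjustment. With an assumed coefficient of variation of 0.2, 86 and 53 were called with edgeR's TMM library sizes, 85 and 57 with plain sums, and with 0.4, 21 and 9 with either. With the reads in contigs as totals, 246 were called higher in wt and 100 higher in bud, and 894 were 4-fold higher in wt and 166 in bud. Of the 11900 tested contigs, 1197 met the 4-fold rule in wt with a floor of 1 read and 129 met the 8-fold rule. Summed with 2 neighbours on each side, low temperature induced-like protein had a ratio of 1.10 (0.898 to 1.34), an interval that holds 1. For AWPM-19-like protein the summed ratio was 1.63. Whether the neighbours belong to the same transcripts was not tested. Apart from these sums and the opposite order, each of the 6 ratios was at least 4-fold or, with 1 neighbour on each side, 1.79 (low temperature induced-like). With 0 to 7 bud reads in 5 of the 6 contigs, the size of their ratios is limited by depth.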

Other observations

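Other stress annotations gave mixed directions. Of 5 heat shock and chaperone contigs, 4 were called higher in bud and 1 was not called, with 9.73 reads per 10000 in wt and 19.6 in bud. With the reads in contigs of each separate assembly as library totals, 1 was called higher in bud and 1 higher in wt, and with assembled reads 2 and 1. The small heat shock protein HSP17.6 (contig02039) had 27 wt reads and 96 bud reads, and a heat shock factor (contig06385) had 0 and 62. HSP70 (contig05034) had 80 and 39 reads and was the contig not called by the main rule. Of 6 contigs for oxidative stress and metallothioneins, 4 were called higher in wt and 2 higher in bud, or 4 and 1 with the reads in contigs as totals. A tau class glutathione S-transferase (contig03326) had 5 and 68 reads, while a glutathione peroxidase (contig03201) had 48 and 13. All these contigs were listed by the study on the same libraries.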
